A study of Sus scrofa with 34 samples.

Results

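Of 9 listed genes that mark B cells, namely MS4A1, CD79A, CD79B, CD22, FCRL1, BLK, PAX5, CR2 and CXCR5, 8 were found by symbol among the 25880 genes of the pig count tables, of which 14857 carried a symbol. CR2 had no entry in the gene name table and was not analysed here. The genes were chosen from values measured in these same libraries, so their levels are given as a description without a test. Expression was measured by RNA-Seq in the ileum of 10 weaned piglets and in the liver of 24 piglets, which include the 10 pigs of the ileum libraries. Ileum came from pigs fed a basal diet (control, CTR, n = 5) or the same diet with PFA, a phytogenic feed additive of essential oils and synthetic counterparts (PFA, n = 5). Liver came from control, PFA, oxidized rapeseed oil (OO) and oxidized oil with PFA (OO + PFA, labelled PFA_OO) pigs, with n = 6 in each. All were crossbreds of Landrace × Large White sows and Pietrain boars, sampled on day 28 of the feeding trial according to the methods. The labels list the same day under age. By the methods the pigs were obtained as weaned piglets and acclimatized before those 28 days, so they were older than 28 days when sampled. The sex of the sequenced pigs is not given in the labels.

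Each diet was fed in a single pen, and effects of the pen cannot be told apart from those of the diet. The oxidized oil took the place of a share of the other ingredients, so the oil diets also held more fat and calculated energy. No diet held as much fresh oil, so effects of the oxidation cannot be told apart from those of the added oil. Small pieces of the rinsed middle ileum and of the liver were taken, and the protocol names no separation of the layers of the gut wall. Pigs are named here by diet (C, P, OO and OP for OO + PFA) and by the number in the library title. The study set aside an OO + PFA liver library for suspected RNA degradation without giving its pig in the text used here. OP-77 was taken to be that library, since it had 36.6 pairs with several alignments per 100 counted on genes, more than any other liver library, and it was left out of the liver tests. Values are read pairs per 1e+06 counted on genes (CPM), scaled by TMM within each tissue. Between 18772230 and 24338165 read pairs were counted on genes in the ileum libraries, and between 18738055 and 42446834 in the liver libraries. Bulk RNA cannot separate fewer cells of a type from less RNA per cell.

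B cells recognise antigen through a membrane immunoglobulin that signals through the CD79A and CD79B chains, and their identity is maintained by the transcription factor PAX5. In the pig gut they are concentrated in Peyer's patches, where follicles sit in the wall beneath a specialised epithelium, and the ileum of young pigs carries a long patch in which B cells multiply. Plasma cells, their antibody-secreting descendants, lie in the lamina propria instead and switch off PAX5 and MS4A1. The liver of a piglet after weaning holds few B cells.

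In the ileum the B cell genes were high in 1 library and low in the other 9. All 8 genes were highest in control pig C-80, where their summed level was 607 CPM, whereas the sums of the other 9 libraries lay between 19.8 CPM in C-92 and 35.2 CPM in C-71. Over the 8 genes, the level in C-80 was 30.7 times the median of the other libraries at the median gene, with a range from 6.00 for CD79A to 602 for PAX5. Among all 14300 genes tested, C-80 held the highest value for 10.8%, and the median ratio was 0.985. The 8 genes were chosen with this pattern known.

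MS4A1 encodes CD20, a membrane protein of mature B cells. Its level was 126.1 CPM in C-80 and 1.30, 1.21, 1.18 and 1.15 CPM in the other control pigs, C-100, C-71, C-110 and C-92. In the PFA pigs it was 2.31 CPM in P-107, 1.40 in P-134, 1.30 in P-95, 0.785 in P-138 and 0.695 in P-75. The 4 other control pigs thus lay inside the range of the PFA pigs, and C-80 was at 54.7 times the highest of the other 9 libraries.

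PAX5 showed the widest gap. It was at 189 CPM in C-80, from 4981 read pairs, and at 0.459, 0.450, 0.315 and 0.160 CPM in control pigs C-71, C-100, C-92 and C-110. The PFA pigs had 0.534 (P-134), 0.329 (P-107), 0.303 (P-95), 0.262 (P-138) and 0.149 CPM (P-75). Outside C-80 these values rest on 3 to 13 read pairs per library, so the order among those pigs is within counting error.

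CD79A and CD79B encode the signalling chains of the B cell receptor. CD79A was at 47.2 CPM in C-80 against 12.4 (C-71), 8.70 (C-100), 7.87 (C-92) and 6.89 CPM (C-110) in the other control pigs and 11.2 (P-134), 8.40 (P-107), 7.50 (P-75), 6.13 (P-138) and 5.93 CPM (P-95) with PFA. CD79B was at 59.6 CPM in C-80 against 3.46, 1.45, 0.695 and 0.682 CPM in C-71, C-100, C-110 and C-92 and 3.49, 1.32, 0.953, 0.838 and 0.596 CPM in P-134, P-107, P-95, P-138 and P-75. Although their products form 1 complex, the partners differed in contrast: C-80 exceeded the next library 3.79-fold for CD79A and 17.1-fold for CD79B. Apart from C-80, pigs C-71 and P-134 led for both chains.

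CD22 and FCRL1 are surface receptors that modulate signalling in B cells, and BLK is a kinase of the SRC family downstream of the receptor. CD22 was at 86.2 CPM in C-80 and between 3.93 and 7.69 CPM in the other 9 libraries. For FCRL1 the level was 62.2 CPM in C-80 and 3.51 to 9.41 CPM elsewhere, and for BLK 20.4 CPM and 0.945 to 2.09 CPM. CXCR5, the chemokine receptor that guides B cells and follicular helper T cells into follicles, was at 16.2 CPM in C-80 (425 read pairs) and 0.199 to 0.751 CPM elsewhere (4 to 18 read pairs). No value of the other 9 pigs reached the level of C-80 for any of the 8 genes.

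**Figure D1:**
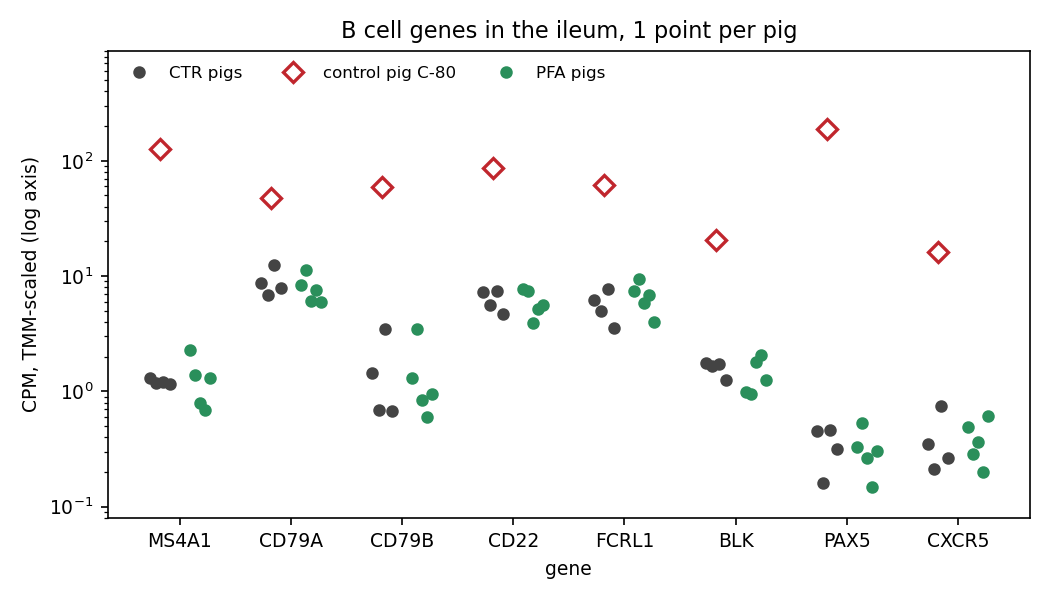
Level of 8 B cell genes in the ileum, in CPM on a log axis, with 1 point per pig (grey, control; green, PFA) and control pig C-80 as a red open diamond. C-80 lies above the other 9 libraries for all 8 genes, from 47.2 against at most 12.4 CPM for CD79A to 189 against at most 0.534 CPM for PAX5.

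Per kilobase of transcript, the order of the genes differed between C-80 and the other libraries. In C-80 CD79A was highest at 70.2 CPM per kb, followed by MS4A1 (53.0), CD79B (38.3), CD22 (24.8), PAX5 (21.1), CXCR5 (5.47) and BLK (3.98). In the other 9 libraries the medians were 11.7 CPM per kb for CD79A, 1.62 for CD22, 0.613 for CD79B, 0.508 for MS4A1, 0.323 for BLK, 0.119 for CXCR5 and 0.0351 for PAX5. Of the neighbours in this second order, CD79A stood apart from CD22 (8.83 to 18.5 against 1.13 to 2.21 CPM per kb) and CXCR5 from PAX5 (0.0672 to 0.254 against 0.0166 to 0.0595), whereas each other pair of neighbours overlapped over the 9 libraries. PAX5 thus ranked above CXCR5 and BLK in C-80 and below both in the medians elsewhere. FCRL1 had no transcript length in the RefSeq annotation and is not placed in either order.

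Promoters of 7 of the 8 genes were read from RefSeq (Sscrofa11.1, 250 bases before to 50 bases after the annotated start) and searched on both strands for the octamer ATGCAAAT bound by POU2F1 and POU2F2, for the core CCCNNGGG of EBF1 sites and for GAGGAAGT, a sequence bound by SPI1 and SPIB. The octamer occurred in 1 of the 7 promoters, CD79B, and in 1.39% of 19506 pig promoters. The EBF1 core occurred in 2 of 7, CD79B and MS4A1, and in 19.9% of all. GAGGAAGT occurred in 0 of 7 and in 2.17% of all. The 2 promoters with a match are shown because these genes rank among the 3 with the largest ratio in C-80, and capitals mark the EBF1 cores and, in CD79B, the octamer on the reverse strand (27 bases before the start). CD79B lies on the plus strand at chr12:15052716-15053015 and MS4A1 on the minus strand at chr2:11229011-11229310, both written 5′ to 3′ in the direction of the gene. A match describes these letters and not binding.
CD79B: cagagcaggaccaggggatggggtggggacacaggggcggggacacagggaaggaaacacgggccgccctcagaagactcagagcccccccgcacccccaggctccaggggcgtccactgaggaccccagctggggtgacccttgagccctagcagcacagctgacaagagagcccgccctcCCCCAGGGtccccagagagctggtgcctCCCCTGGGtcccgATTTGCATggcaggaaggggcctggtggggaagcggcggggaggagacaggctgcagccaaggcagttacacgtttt
MS4A1: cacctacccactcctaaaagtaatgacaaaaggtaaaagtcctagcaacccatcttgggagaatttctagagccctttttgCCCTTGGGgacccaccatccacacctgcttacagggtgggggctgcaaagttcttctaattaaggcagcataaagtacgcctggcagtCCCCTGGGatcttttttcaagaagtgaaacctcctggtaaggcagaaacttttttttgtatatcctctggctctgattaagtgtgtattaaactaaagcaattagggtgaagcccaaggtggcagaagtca

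The other genes of the B cell pathway moved with the chosen genes in C-80. Of 20 other B cell genes that reached 1 CPM (of 22 listed), 19 were highest in C-80, with a median ratio of 3.50 over the other libraries. FCRLA was at 48.0 CPM in C-80 against 0.850 to 2.88, TNFRSF13C, the receptor for the survival factor BAFF, at 46.2 against 1.21 to 4.31, and VPREB3 at 28.5 against 0.314 to 1.63. The 4 most abundant genes of the list had smaller ratios: 2.17 for IKZF3, 1.84 for CIITA, 5.10 for SPIB and 3.21 for RASGRP3. TNFRSF13B, at 3.50 CPM in C-80, was the exception, with up to 6.53 CPM in another library. FCRLA, TNFRSF13C, VPREB3 and TNFRSF13B were singled out after their values were seen.

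Genes of B cell receptor signalling were higher in C-80 as well, but by less. Of 20 genes, 17 were highest in C-80, with a median ratio of 2.0. SYK, the kinase recruited to the CD79 chains, was at 76.4 CPM against 14.1 to 20.4 CPM elsewhere (ratio 4.16). PLCG2 (264 against 109 to 182 CPM) and PTPN6 (129 against 50.9 to 102.4 CPM) were highest in C-80 too, while BCL10 was not (56.2 against 51.1 to 74.9 CPM). Several kinases and adaptors of this list also act in macrophages and mast cells, and none of them was at 0 in any library.

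Most germinal centre and follicle genes also stood highest in C-80. Of 14 germinal centre genes, 10 were highest in C-80, with a median ratio of 3.94. BCL6, the repressor of the germinal centre programme, was at 69.8 CPM in C-80 against 18.3 to 27.6 CPM elsewhere, MYBL1 at 101 against 4.88 to 9.58, and ELL3 at 87.3 against 0.397 to 1.12. The most abundant members of the list, MME and CD38, which enterocytes, T cells and stroma also express, were not highest in C-80. Of 8 genes of follicle stroma and lymphoid chemokines, 5 were highest in C-80, among them CLU (428 against 50.3 to 87.6 CPM), VCAM1 (137.2 against 66.4 to 89.2 CPM) and CCL19 (92.9 against 15.03 to 43.3 CPM), whereas CCL21, at 17.0 CPM, lay within the 8.95 to 25.3 CPM of the other pigs. BCL10, MYBL1, ELL3, STAP1, CCL21 and GP2 were singled out after their values were seen.

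GP2, a receptor of the M cells that cover follicles, was at 22.4 CPM in C-80 and at most 0.209 CPM in any other ileum library. The other genes of that list did not stand apart in the same way, since 2 of 6 were highest in C-80. UBD was lowest there, at 504 CPM against 513 to 1560 CPM.

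Lists for other cell types did not share the pattern. Of 18 T cell genes, 3 were highest in C-80, with a median ratio of 1.26, and the summed level of 662 CPM was inside the range of the other 9 libraries, 522 to 815 CPM. CD3E was at 109 CPM in C-80 and between 92.1 and 152 CPM elsewhere. Of 10 plasma cell genes, 2 were highest in C-80 and 2 lowest, and JCHAIN, the joining chain of secreted IgA and IgM, was at 614 CPM within 519 to 1360 CPM. The sum of 14 enterocyte genes, 31363 CPM, was near the median of the other pigs (31596 CPM), and 3 of 11 macrophage genes were highest in C-80. Among lists that mark no single cell type, 7 of 20 cell cycle genes (35.0%) were highest in C-80 (median ratio 1.42), against 10.8% of all genes tested. Their summed level was 1752 CPM in C-80 and 908 to 1703 CPM elsewhere. The count was 6 of 28 for the NF-kB pathway (median ratio 1.30) and 2 of 34 for interferon-stimulated genes (1.01). The NF-kB sum was 2065 CPM in C-80 against 1688 to 2063 CPM, and the interferon sum 4725 CPM within 3804 to 8270 CPM.

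Smooth muscle genes were lower in C-80. Of 13 genes, 12 were lowest in C-80 of the 10 libraries, with a median ratio of 0.367, and the summed level was 2992 CPM against 4899 to 13931 CPM elsewhere. MYH11, the myosin heavy chain of smooth muscle, was at 1011 CPM against 1515 to 4734 CPM, and ACTG2 at 335 against 682 to 2441 CPM. C-80 was lowest for 15.6% of all genes tested. The parts of muscle, follicle and epithelium in the pieces of gut were not measured in the files, and their part in the B cell values was not tested.

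**Figure D2:**
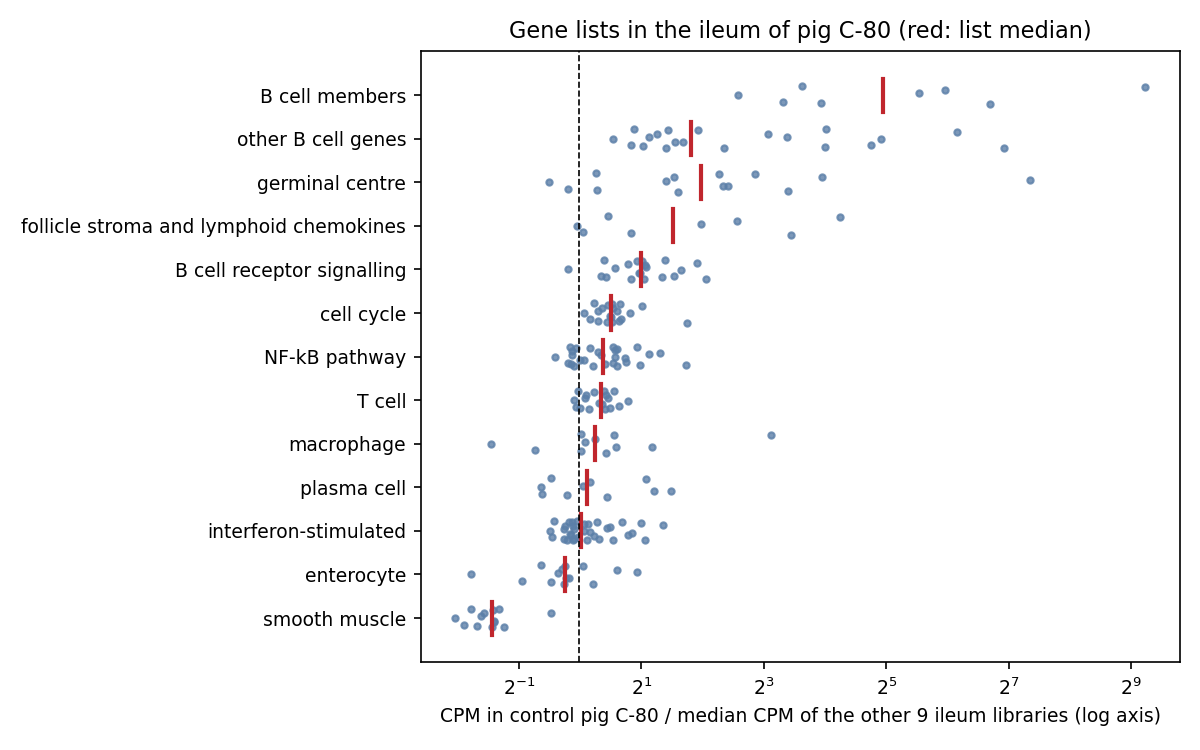
Ratio of the level in control pig C-80 to the median level of the other 9 ileum libraries on a log axis, with 1 point per gene, red bars for the median of each list and a dashed line for the median of all genes tested (0.985). Medians are 30.7 for the chosen B cell genes, 3.50 for other B cell genes, 3.94 for germinal centre genes, 1.26 for T cell genes and 0.367 for smooth muscle genes.

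C-80 also held more genes apart from the rest than any other ileum library. With 14311 genes at 1 CPM or more in at least 1 library, 99 were 4-fold or more above all other libraries in C-80, 68 of them with a symbol and 7 of them among the 8 chosen genes. In the other 9 libraries between 0 and 9 genes did so. The low-count filter kept 48 of the 99 genes and dropped 51, since a gene counted in 1 library of 10 does not pass it.

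The genes most like the chosen B cell genes were found by the Pearson correlation of log2 CPM with their mean standardized level over the 10 ileum libraries, given here as a description in which 1 library sets most of the values. SYK was nearest (r = 0.99), and those after it included BACH2 (0.98), ENSSSCG00000015294 (0.97), HMCES (0.97), ENSSSCG00000031476 (0.97), BCL7A (0.97), FCHSD2 (0.97), EHD3 (0.97) and CCDC181 (0.97). Without C-80 these values were between 0.06 for HMCES and 0.83 for SYK. BACH2, a repressor that keeps B cells from becoming plasma cells, was at 46.3 CPM in C-80 and 2.09 to 3.55 CPM elsewhere. At the other end were OCRL (-0.95), SYTL4 (-0.94), DDAH1 (-0.94), CROT (-0.94) and RCN1 (-0.93), which were lower in C-80 than in every other library. Between pairs of the chosen genes, the median r was 0.94 over 10 libraries, with 28 of 28 pairs above 0, and 0.42 without C-80, with 21 of 28 pairs above 0. The median r of the plasma cell genes was 0.13 over 10 libraries and 0.75 without C-80, and for germinal centre genes 0.87 and 0.04.

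The comparison of PFA with control in the ileum asks what the additive does to the gut without a challenge. With edgeR's quasi-likelihood test, 0 of 14300 genes (0%) were called at an adjusted p of 0.05 or less, 401 had an unadjusted p under 0.05, and DESeq2 called 4 genes (477 at an unadjusted p under 0.05). Of the chosen genes, 6 were tested and 2, PAX5 and CXCR5, were dropped by the filter, so that the 6 do not stand for all. None of the 6 was called, but DESeq2 gave no adjusted p for 5 of them. All 6 had lower fitted values with PFA. Their median was -1.92 on the log2 scale, where that of all genes was 0.02.

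For MS4A1 the mean was 26.2 ± 55.9 CPM (SD, n = 5) in the control pigs and 1.30 ± 0.643 (SD, n = 5) with PFA. Its log2 fold change was -4.34 (standard error 1.47), a 20.3-fold difference. CD79B followed at -3.18 (standard error 1.23), BLK at -1.94 (0.791), CD22 at -1.90 (0.790), FCRL1 at -1.34 (0.730) and CD79A at -1.09 (0.509). No p is given for these 6 genes, since they were chosen with the high values of control pig C-80 known and their direction follows from that choice.

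Without C-80 the differences were near 0 for the same 6 genes. MS4A1 was at 1.21 ± 0.0645 CPM in the 4 remaining control pigs (SD, n = 4), and its fitted difference was 0.10 on the log2 scale (standard error 0.348). FCRL1 changed its direction too, to 0.26 (0.287), while CD79A was at -0.20 (0.245), BLK at -0.18 (0.292), CD79B at -0.13 (0.615) and CD22 at -0.07 (0.241). The choice of these genes bears on this fit too, so no p is given for them. With the mean smooth muscle level as a covariate in place of the omission, MS4A1 was at -0.69 (standard error 1.05) and FCRL1 at -0.01 (0.524), and with the mean T cell level MS4A1 was at -2.35 (1.68). The fit without C-80 called 0 of 14370 genes (edgeR), with 313 at an unadjusted p under 0.05, and DESeq2 without C-80 called 3. The range of PFA pigs and the range of control pigs overlapped for all 8 genes, with or without C-80.

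The other B cell lists followed the same course. Of 19 other B cell genes tested, 19 had lower fitted values with PFA over 10 libraries (median -0.60) and 10 without C-80 (median -0.01). For B cell receptor signalling it was 20 of 20 (median -0.29) and 9 of 20 (median 0.01). For germinal centre genes it was 10 of 13 (median -0.61) and 6 of 13 (median 0.03), and for follicle stroma and chemokines 7 of 7 (median -0.18) and 3 of 7 (median 0.03). Smooth muscle genes went the other way, with 11 of 13 higher with PFA over 10 libraries (median 0.21) and 7 of 13 without C-80 (median 0.02). None of these genes was called by edgeR in either fit.

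T cell and interferon lists hardly depended on C-80. The median of 18 T cell genes was 0.04 with and 0.04 without it. Of 34 interferon-stimulated genes, 32 were lower with PFA in both fits, with medians of -0.36 and -0.36, and of -0.37 with the mean level of the chosen B cell genes as a covariate. Without control pig C-100 this median was -0.10, with 27 of 34 lower. For 28 genes of the NF-kB pathway the median was -0.14 with C-80, -0.08 without it and -0.05 with the covariate. Of 20 cell cycle genes, 15 were higher with PFA (median 0.14) and 19 without C-80 (median 0.30).

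**Figure D3:**
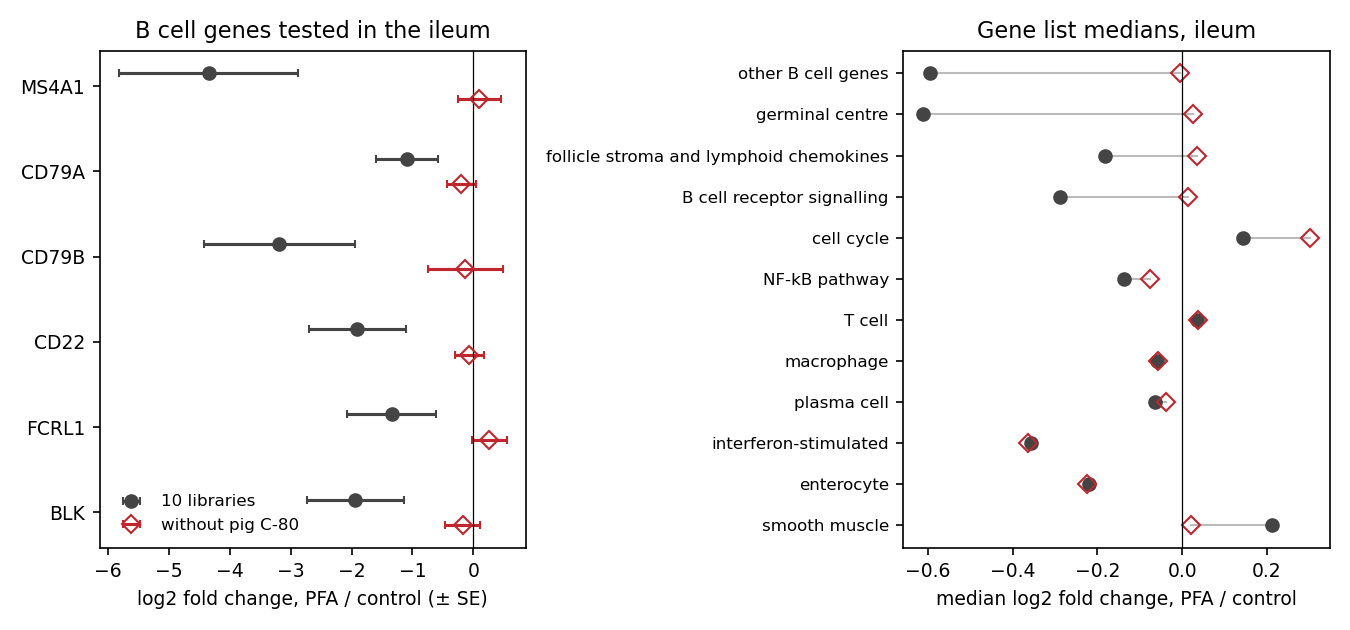
Left, log2 fold change of PFA over control in the ileum for the 6 B cell genes tested, with bars of 1 standard error; right, median log2 fold change of the other gene lists. Grey points are all 10 libraries and red diamonds the fit without control pig C-80, where MS4A1 goes from -4.34 to 0.10 and the median of other B cell genes from -0.60 to -0.01.

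Among genes with a fitted 2-fold difference in the ileum, regardless of the test, C-80 weighed on those lower with PFA. Of 90 such genes over 10 libraries, 27 were also among the 40 found without C-80, which is 30.0% of the first list and 67.5% of the second, and 18 of the 90 had the opposite sign. Of 28 genes higher with PFA, 17 were among the 26 found without C-80 (60.7% and 65.4%), and 0 changed sign. DESeq2's calls were PRR15, ANPEP, UCHL5 and ENSSSCG00000038068 with C-80, and PRR15, ANPEP and BNIP5 without it. None of them is a B cell gene. With C-80, DESeq2 gave no adjusted p for MS4A1, CD79B, CD22, FCRL1 and BLK, so these 5 could not be called in that fit.

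In the liver the same genes were low in every library. The summed level of the 8 genes was between 7.80 and 18.7 CPM, lower than that of any ileum library. CD79A had the highest median, at 2.78 CPM over the 23 libraries tested, with a range from 1.32 in P-95 to 6.79 in C-80. Medians of the other 7 genes lay between 0.343 CPM for CXCR5 and 1.85 CPM for CD22, and CXCR5 did not exceed 0.641 CPM. In the same pig CD22, CD79A and FCRL1 were higher in ileum than in liver in 10 of 10 pigs, BLK in 9 and CD79B in 8. For MS4A1 it was 5 of 10 pigs. PAX5 was higher in ileum in 1 of 10, which was C-80, with medians of 0.322 CPM in ileum and 1.25 CPM in liver. The levels of the tissues were scaled separately, so these counts compare CPM without a test.

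Pig C-80 was highest in liver for some of the genes and not for others. Its summed level of 18.7 CPM was the highest of the 23 libraries, ahead of P-134 at 17.3 CPM. C-80 ranked first of 23 for CD79A (6.79 against at most 5.16 CPM) and BLK (1.63 against at most 1.33 CPM), second for CD79B (2.19 CPM) and 16th for CD22 (1.74 CPM). P-134, in turn, was highest for MS4A1 (3.84 CPM) and PAX5 (2.84 CPM). Unlike in ileum, no library led for all 8 genes. Among the 23 libraries, that of C-80 had the largest share of counts in its 10 most counted genes (34.8%). It also had the most pairs on no gene (23.5 per 100 counted on genes) and the most ambiguous pairs (4.44 per 100). Their part in these ranks was not tested.

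The liver library titles take 2 forms, PL (9 of the 23 libraries) and PigLiv (14), whose meaning the labels do not give. C-80 and P-134 are among the PL libraries. The summed B cell genes had a median of 12.0 CPM (8.10 to 18.7) in PL and 9.77 CPM (7.80 to 16.6) in PigLiv libraries. MS4A1 had medians of 2.07 and 1.05 CPM and PAX5 of 1.85 and 1.06 CPM. T cell genes were higher in PL libraries as well, with a median sum of 86.7 CPM (57.0 to 114) against 54.9 CPM (45.8 to 95.7), and red blood cell genes with 407 against 219 CPM. Their part in the B cell values was not tested.

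Liver diets were compared in a fit of 23 libraries, in which the contrasts share pigs. The 8 B cell genes were chosen with levels in these libraries known, so their p values in the liver are given as a description. OO against control asks what the diet with oxidized oil does, with its added fat and energy. Here edgeR called 375 of 13831 genes (2.71%) and 0 of the 8 B cell genes. An unadjusted p under 0.05 was reached by 2956 of the 13831 genes and by 1 of the 8. For PFA against control edgeR called 0 genes (0%), with 1522 at an unadjusted p under 0.05 and 43 called by DESeq2. For OO + PFA against OO, the contrast for an effect of PFA under challenge, edgeR called 0 genes (0%), with 1176 at an unadjusted p under 0.05 and 31 called by DESeq2. OO + PFA against control gave 702 genes (5.08%) and the test across the 4 diets 506 (3.66%), with 0 of the 8 B cell genes in each. Across the diets CD79A had an adjusted p of 0.0734 with edgeR and 0.0106 with DESeq2. DESeq2 called more genes throughout, 1079 for OO against control, 1370 for OO + PFA against control and 1776 across the diets.

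CD79A came nearest to a call. It was at 2.91 CPM in the lowest and 6.79 CPM in the highest control pig (median 4.16), whereas the medians were 2.66 CPM with PFA (1.32 to 3.51), 2.70 CPM with OO (1.79 to 3.78) and 2.76 CPM with OO + PFA (1.96 to 3.86, n = 5). Of 6 pigs per diet, 5 with PFA and 5 with OO lay below every control pig, as did 3 of the 5 with OO + PFA, and the others overlapped. The log2 fold changes against the shared control pigs were -0.77 for OO (standard error 0.233, adjusted p = 0.0702), -0.81 for PFA (0.232, adjusted p = 0.277) and -0.63 for OO + PFA (0.244, adjusted p = 0.125), all from edgeR. OO + PFA against OO gave 0.14 (standard error 0.245, adjusted p = 0.888, edgeR). DESeq2 gave an adjusted p of 0.0169 for OO against control. A correction for GC content gave 0.00556 for OO, 0.00694 for OO + PFA against control and 0.00452 across the diets (edgeR). However, the GC content is known for 78.5% of the genes tested, under 80%, so that check is void. The genes with a GC value gave 0.0651 for OO against control without the correction (edgeR). Over 32 settings the adjusted p for OO against control ran from 0.00556, the value of that void check, to 0.142.

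The lower level of CD79A outside the control diet was seen in both title forms. In PigLiv libraries the means were 3.87 CPM in 4 control pigs, 3.06 in 3 OO pigs, 2.74 in 3 PFA pigs and 2.72 in 4 OO + PFA pigs. In PL libraries they were 5.69 CPM in 2 control pigs, 2.25 in 3 OO pigs, 2.37 in 3 PFA pigs and 3.86 in the only OO + PFA pig. With a term for the title form the log2 fold change for OO was -0.77 (adjusted p = 0.0746, edgeR). CD79B, whose product pairs with that of CD79A, did not follow it, at 0.32 for OO (standard error 0.430, adjusted p = 0.712) and 0.03 for PFA (0.430, adjusted p = 0.989, edgeR).

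MS4A1 had the largest fitted difference between the oil diets. It was at 0.720 to 3.28 CPM in the OO pigs (median 2.32) and at 0.856 to 1.88 CPM in 5 OO + PFA pigs (median 1.07), and the ranges overlapped. Its log2 fold change was -1.0 (standard error 0.406, adjusted p = 0.516, edgeR), against -0.02 for the median of all genes. For OO against control it was 0.67 (standard error 0.378, adjusted p = 0.312, edgeR). The remaining genes, PAX5, BLK, CD22, FCRL1 and CXCR5, had adjusted p values between 0.382 and 0.991 in these 4 contrasts.

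**Figure D4:**
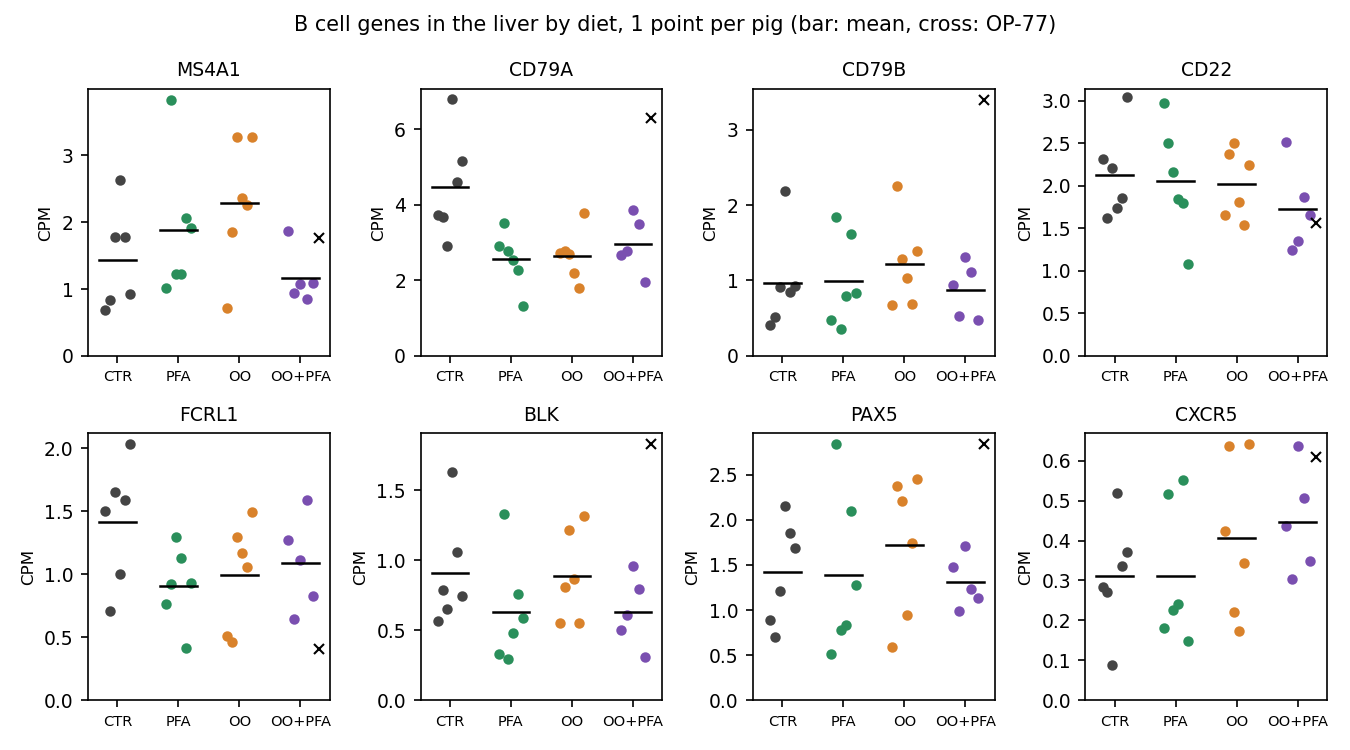
Level of 8 B cell genes in the liver in CPM by diet, with 1 point per pig, bars for the mean of the pigs tested and a cross for OP-77, which was left out of the tests. CD79A has its highest mean in the control group, and each diet overlaps the control pigs for all 8 genes.

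Other lymphocyte genes in the liver gave the following counts. Of 19 other B cell genes tested, 14 had higher and 5 lower fitted values for OO against control (median 0.15), and 5 higher and 14 lower for OO + PFA against OO (median -0.14), with 0 called by edgeR in both. T cell genes differed more between the oil diets. All 18 tested were lower with OO + PFA than with OO, with a median log2 fold change of -0.67 and 0 called by edgeR. With OP-77 included it was 15 of 18, with a median of -0.29. T cell genes were also higher in PL than in PigLiv libraries. The tested OO pigs had 3 PL and 3 PigLiv libraries, and the tested OO + PFA pigs 1 and 4. No T cell value adjusted for the title form is given here. Over 23 liver libraries the genes most like the B cell genes were ENSSSCG00000026210 (r = 0.87), CD37 (0.80), a tetraspanin of leukocytes, ITGB7 (0.80), an integrin chain of gut-homing lymphocytes, SEPTIN1 (0.79) and MAP4K1 (0.78). The lowest correlations were -0.73 for ENSSSCG00000008845, -0.73 for PDHB, -0.72 for PARL, -0.72 for ENSSSCG00000014013 and -0.70 for ENSSSCG00000004071. The median r was 0.65 for 15 T cell genes, 0.37 for 18 other B cell genes and -0.04 for all 12156 genes compared.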

How the data were processed

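RNA-Seq values of 10 ileum and 24 liver libraries were used as deposited: whole-number counts of read pairs per Ensembl gene, which the authors made with STAR 2.6.1d and HTSeq on Sscrofa11.1, without normalization. The strand option and annotation release are not given in the sources used here. The libraries were stranded and poly(A)-enriched. The HTSeq summary lines, which name no gene, were left out, and 34 of 34 table columns equalled the single-library files. The B cell genes and gene lists were chosen with earlier results of these data known.

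Counts were analyzed with edgeR 4.0.16 (TMM, filterByExpr, quasi-likelihood test, two-sided, Benjamini-Hochberg over all genes kept), with DESeq2 1.42.0 as an alternative. Calls were made at an adjusted p of 0.05 or less. log2 CPM used a prior count of 2. Every pig is a separate animal. Named were all chosen genes, up to 4 most abundant genes per list, the genes of highest and lowest correlation, and other genes where stated, and some genes that this rule names are not reported here. Of 200 genes changed 2-fold in a test on simulated data, 53.0% were called in the ileum and 63.0% for OO against control, and 89.0% and 91.0% when changed 4-fold. Unchanged genes called were 6 and 3 in the 2-fold runs and 11 and 9 in the 4-fold runs. The simulated libraries of a diet shared the same mean for each gene. These rates were thus not measured for genes set by a library such as C-80. Symbols, positions and promoters came from the gene name table and RefSeq. Alternatives were other scalings and filters, a GC correction, covariates, a title term, all 24 liver libraries, fits of 2 diets and leaving out each pig. DESeq2 without C-80, the B cell covariate without C-80 and the genes with a GC value alone were chosen after seeing the data. The columns hold counts only, and no fold changes of the authors were used.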

Additional observations from a re-analysis of the deposited data

Results flagged for a closer look

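A library was singled out where its gap to the nearest of its diet took up more of the whole range than Dixon's 95% limit, which chance reaches in about 1 group of 20. Of 48 groups of the B cell genes, 12 met this, and of 90 groups of the list sums 5 did. The second count is about what chance gives for independent groups, but these groups share libraries and related genes. The 8 genes were chosen with the level of C-80 in the ileum known, so their values in that group follow from the choice. In the control ileum the library was C-80 for all 8 genes, with shares of 0.999 for MS4A1, 0.998 for PAX5, 0.974 for BLK, 0.966 for CD22, 0.966 for CXCR5, 0.953 for CD79B, 0.929 for FCRL1 and 0.862 for CD79A. The sums of follicle stroma and lymphoid chemokines (0.971), other B cell genes (0.888) and B cell receptor signalling (0.774) set C-80 apart in the same group.

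Among PFA ileum libraries, P-134 was apart for CD79B (0.751) and P-138 for the hepatocyte genes (0.719). In liver, C-80 was apart for CD79B among control pigs (0.709) and P-134 for MS4A1 among PFA pigs (0.627). OP-105 was apart for MS4A1 among OO + PFA pigs other than OP-77 (0.772), but OP-77 was at 1.76 CPM, next to 1.88 CPM in OP-105. OO-130 was apart for follicle stroma and lymphoid chemokines among OO pigs (0.638).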

How the results depend on the processing

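No paired analysis was possible because the diets compared were fed to different pigs, and the pig numbers join ileum and liver libraries but no 2 diets. In all 3 scalings 8 of 8 B cell genes were highest in C-80. In the ileum edgeR called 0 genes under every alternative, with the mean B cell level as a covariate too (290 at an unadjusted p under 0.05), and DESeq2 called 4, or 3 without C-80. The number at an unadjusted p under 0.05 was 2026 without P-134 and 1004 without C-110. For the ileum, leaving out 1 pig gave MS4A1 between -4.68 and 0.10 and FCRL1 between -1.62 and 0.26 on the log2 scale, the highest without C-80, where DESeq2 gave 0.10 and 0.25.

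The liver counts moved with DESeq2 to 1079 (OO against control), 43 (PFA against control), 31 (OO + PFA against OO), 1370 (OO + PFA against control) and 1776 (across the diets), with all 24 libraries to 224 for OO against control and 1, 1530 and 1113 for the last 3, with the GC correction to 802, 10 and 810 (OO against control, OO + PFA against OO, across the diets), with a fit of the 2 diets to 194 for OO and 1690 for OO + PFA against control, and in genes with a GC value alone to 1 for OO + PFA against OO. GC content was known for 78.1% of genes tested in ileum and 78.5% in liver, under 80%, so the GC check of all genes is void. Leaving out 1 pig gave 167 to 1325 genes for OO against control (without OO-130 and OO-97), 191 to 1127 for OO + PFA against control (without C-100 or C-71, and OO-97), 0 to 7 for OO + PFA against OO (7 without OO-102 or OP-105) and 297 to 1450 across the diets (without C-85 and OO-97). The cause was not tested.

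Signs of log2 fold changes that passed no test turned as follows. For PFA against control, the GC correction gave 0.032 for CD22, 0.033 for CXCR5 and 0.041 for PAX5, no filter 0.0053 for CXCR5 and the title term -0.15 for CD79B. For OO + PFA against OO the GC correction gave -0.037 for CD79A, and all 24 libraries gave 0.070 for CD79B and -0.035 for FCRL1. For OO + PFA against control, all 24 libraries gave 0.39 for CD79B and 0.11 for PAX5, and the title term 0.018 for CD79B. Leaving out 1 pig gave, for OO against control, BLK -0.20 to 0.19 and CD22 -0.17 to 0.034, for PFA against control CD22 -0.19 to 0.079, CD79B -0.25 to 0.44, CXCR5 -0.25 to 0.16 and PAX5 -0.38 to 0.12, for OO + PFA against OO CXCR5 -0.025 to 0.33 and FCRL1 -0.074 to 0.25, and for OO + PFA against control CD79B -0.35 to 0.25 and PAX5 -0.27 to 0.0074.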
